A study of Mus musculus with 6 samples.

Results

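The kinesin superfamily was examined in newborn mouse cerebellum with and without a neural deletion of *Tox3*. Its members were taken by name, as every protein-coding gene of the count table called Kif or Kifc followed by a number, which gave 43 of 54532 genes. They were sorted by textbook role into 14 mitotic kinesins, 9 ciliary kinesins, 15 kinesins of axonal and vesicle transport or of neuronal microtubules, 4 others, and *Kif1bp*, which encodes the KIF-binding protein and is not itself a motor. Kinesins are motors that walk along microtubules or take their ends apart, using ATP. Mitotic kinesins build and shorten the spindle and split the daughter cells, ciliary kinesins carry material into cilia or set their length, and neuronal kinesins haul vesicles, mitochondria and mRNA along axons and dendrites. At birth the cerebellum holds both kinds of user, since granule neuron progenitors divide quickly in its outer layer while neurons beneath them extend axons and dendrites.

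Poly-T selected mRNA from cerebella at postnatal day 1 was sequenced in 3 control libraries (Ctrl), from littermates labelled Tox3f/f, and 3 conditional knockout libraries (cKO), labelled Nestin-cre;Tox3f/f. All 6 libraries therefore carried the floxed *Tox3* allele, and only the cKO libraries carried the Nestin-cre transgene, which expresses Cre recombinase in neural progenitors and their neuronal and glial offspring, so the effects of the transgene and of the deletion cannot be told apart. The strain of the animals is not given in the labels, and neither is whether a library came from 1 animal or a pool, so the p-values measure the spread between libraries. Total counts on genes lay between 15391854 and 17178478 per library. *Tox3* was counted at 64.3, 63.0 and 64.4 CPM (counts scaled to a common library size) in Ctrl 1, 2 and 3 and at 55.3, 63.2 and 59.2 CPM in cKO 1, 2 and 3, so a count over the whole gene did not check the labels. The cerebellar markers *En1*, *En2*, *Zic1*, *Zic2* and *Pax6* were present in every library, with a summed level of 2558 to 2688 CPM in Ctrl and 1936 to 2053 CPM in cKO. The forebrain marker *Emx2* and the hindbrain markers *Hoxb2*, *Hoxb3* and *Hoxb4* did not exceed 3 counts in any library, while *Emx1*, *Hoxa2* and *Hoxa3* reached at most 5, 10 and 9 counts. *Tbr1*, a forebrain marker that cerebellar nuclear neurons also express, had 67 to 107 counts.

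The sequences around the start of transcription are shown first. Most mitotic promoters shared short sequence words there, although that of *Kif18a*, which was also lower in cKO, held none of them. Any link between these words and the counts was not tested. Promoters of 300 bases, from 250 before to 50 after the start, were taken from RefSeq (GRCm38.p6) for 33 of the 43 members. The genes not matched were *Kif20a*, *Kif19a*, *Kif5a*, *Kif5b*, *Kif13b*, *Kif21b*, *Kifc2*, *Kifc3*, *Kif28* and *Kif1bp*. The words searched on both strands were TTTGAA and TTCGAA, the core of the cell cycle genes homology region (CHR) through which many genes of G2 and mitosis are timed, CCAAT, the box bound by NF-Y, and CAGCTG, an E-box of the kind read by basic helix-loop-helix factors. TTTGAA and TTCGAA were counted together as the CHR core, and no match overlaps another in the promoters printed here. *Kif11*, *Kif15* and *Kif22* are printed as mitotic members, *Kif24* as the ciliary member that fell, *Kif5c* as a transport member that holds none of the words, and *Kif26b* as a member that holds both a CHR core and a CCAAT box but was not lower in cKO. Each sequence runs 5′ to 3′ along the strand of its gene, and capitals mark a CHR core or a CCAAT box, which on the opposite strand read TTCAAA and ATTGG. The *Kif11* promoter lies at chr19:37376132-37376431 on the plus strand, *Kif15* at chr9:122950831-122951130 on the plus strand, *Kif22* at chr7:127042371-127042670 on the minus strand, *Kif24* at chr4:41464799-41465098 on the minus strand, *Kif5c* at chr2:49619036-49619335 on the plus strand and *Kif26b* at chr1:178528875-178529174 on the plus strand.
Kif11: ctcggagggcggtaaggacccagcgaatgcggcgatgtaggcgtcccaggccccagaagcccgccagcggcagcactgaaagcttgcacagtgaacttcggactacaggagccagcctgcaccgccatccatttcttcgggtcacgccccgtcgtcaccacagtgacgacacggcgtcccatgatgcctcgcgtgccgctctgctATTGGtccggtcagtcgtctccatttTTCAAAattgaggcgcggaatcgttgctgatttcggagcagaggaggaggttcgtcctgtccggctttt
Kif15: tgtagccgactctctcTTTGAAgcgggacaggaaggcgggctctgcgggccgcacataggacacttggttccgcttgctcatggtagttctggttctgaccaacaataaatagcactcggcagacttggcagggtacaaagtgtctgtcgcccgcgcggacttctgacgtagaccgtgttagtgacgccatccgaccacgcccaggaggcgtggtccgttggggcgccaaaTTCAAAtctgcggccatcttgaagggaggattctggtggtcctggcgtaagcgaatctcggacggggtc
Kif22: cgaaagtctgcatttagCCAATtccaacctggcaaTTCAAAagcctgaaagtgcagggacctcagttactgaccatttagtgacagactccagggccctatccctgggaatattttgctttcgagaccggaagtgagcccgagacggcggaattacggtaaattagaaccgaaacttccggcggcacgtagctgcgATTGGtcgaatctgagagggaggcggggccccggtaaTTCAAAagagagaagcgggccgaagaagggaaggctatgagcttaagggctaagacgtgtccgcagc
Kif24: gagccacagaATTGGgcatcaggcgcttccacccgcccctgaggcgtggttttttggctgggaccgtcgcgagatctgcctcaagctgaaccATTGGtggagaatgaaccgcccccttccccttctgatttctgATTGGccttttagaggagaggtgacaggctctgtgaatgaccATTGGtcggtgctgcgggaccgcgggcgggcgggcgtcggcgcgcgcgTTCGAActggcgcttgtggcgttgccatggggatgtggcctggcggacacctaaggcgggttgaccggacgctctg
Kif5c: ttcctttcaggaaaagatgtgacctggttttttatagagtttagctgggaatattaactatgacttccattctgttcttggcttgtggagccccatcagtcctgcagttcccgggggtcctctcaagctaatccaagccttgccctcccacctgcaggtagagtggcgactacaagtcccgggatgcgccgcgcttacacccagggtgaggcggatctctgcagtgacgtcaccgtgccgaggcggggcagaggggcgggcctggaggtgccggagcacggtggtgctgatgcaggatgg
Kif26b: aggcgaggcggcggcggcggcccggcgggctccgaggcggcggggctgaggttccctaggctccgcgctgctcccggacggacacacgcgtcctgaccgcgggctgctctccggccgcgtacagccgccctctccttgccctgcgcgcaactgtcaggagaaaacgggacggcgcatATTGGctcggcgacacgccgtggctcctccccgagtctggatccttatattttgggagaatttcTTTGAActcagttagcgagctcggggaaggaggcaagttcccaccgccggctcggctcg

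Among the mitotic kinesins, 11 of 13 promoters held TTTGAA (84.6%), against 11.5% of the promoters of 11404 tested protein-coding genes and 18.1% of all 27025 promoters of the table. The mitotic promoters without it were those of *Kif18a* and *Kif2b*. Not all matches lay near the start of the gene. Those of *Kif2c* and *Kif14* began at positions -103 and -228 from the RefSeq start, in windows inside the span of the gene in the count table. A CCAAT box stood in 9 of the 13 mitotic promoters, against 38.4% of the promoters of tested protein-coding genes, and a CHR core together with a CCAAT box in 8 of 13, against 5.73%. The windows of *Kifc1* and *Kifc5b* share long stretches of nearly the same sequence, so their matches, counted separately here, are not independent. In the *Kif11* promoter printed above the CCAAT box began at position -45 and the CHR core at position -19, counting the annotated start as 0. In *Kif24* the core was TTCGAA, at position -26, behind 4 CCAAT boxes. None of the 9 transport promoters held TTTGAA or TTCGAA when the promoter listed first was used for each gene, although a second *Kif1a* promoter held TTTGAA, and 1 of 9, that of *Kif1b*, held CCAAT. Of the ciliary promoters, 2 of 8 held a CHR core (*Kif24* and *Kif27*) and 5 of 8 held CCAAT. A CHR core stood in 13.4% of the promoters of tested protein-coding genes. With so few promoters, the transport and ciliary counts of the core cannot be told from that share. CAGCTG was found in 1 of 13 mitotic, 1 of 8 ciliary and 2 of 9 transport promoters, against 15.4% of the promoters of tested protein-coding genes. These matches describe the letters of the windows and nothing bound there was measured.

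Every mitotic kinesin with enough reads to test fell in the cKO cerebellum, by amounts that lay close together. All 13 tested mitotic members were called lower, where a call asks of edgeR's quasi-likelihood test an adjusted p (Benjamini-Hochberg, all genes) below 0.01 together with a log2 fold change of more than 0.5 either way, and none was called higher. Over all 17505 genes tested, 3.63% were called lower and 3.03% were called higher. The mitotic log2 fold changes ran from -0.997 to -0.61 with a median of -0.70, while the median over all tested genes was -0.01. The 3 cKO libraries lay below all 3 Ctrl libraries for each of the 13 genes, against 20.1% of all tested genes. The median log2 ratio of the mitotic members to their Ctrl mean was -0.74, -0.80 and -0.73 in cKO 1, 2 and 3, and 0.01, 0.07 and -0.04 in Ctrl 1, 2 and 3. In bulk RNA, fewer cells of a type and less RNA per cell cannot be told apart.

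**Figure D1:**
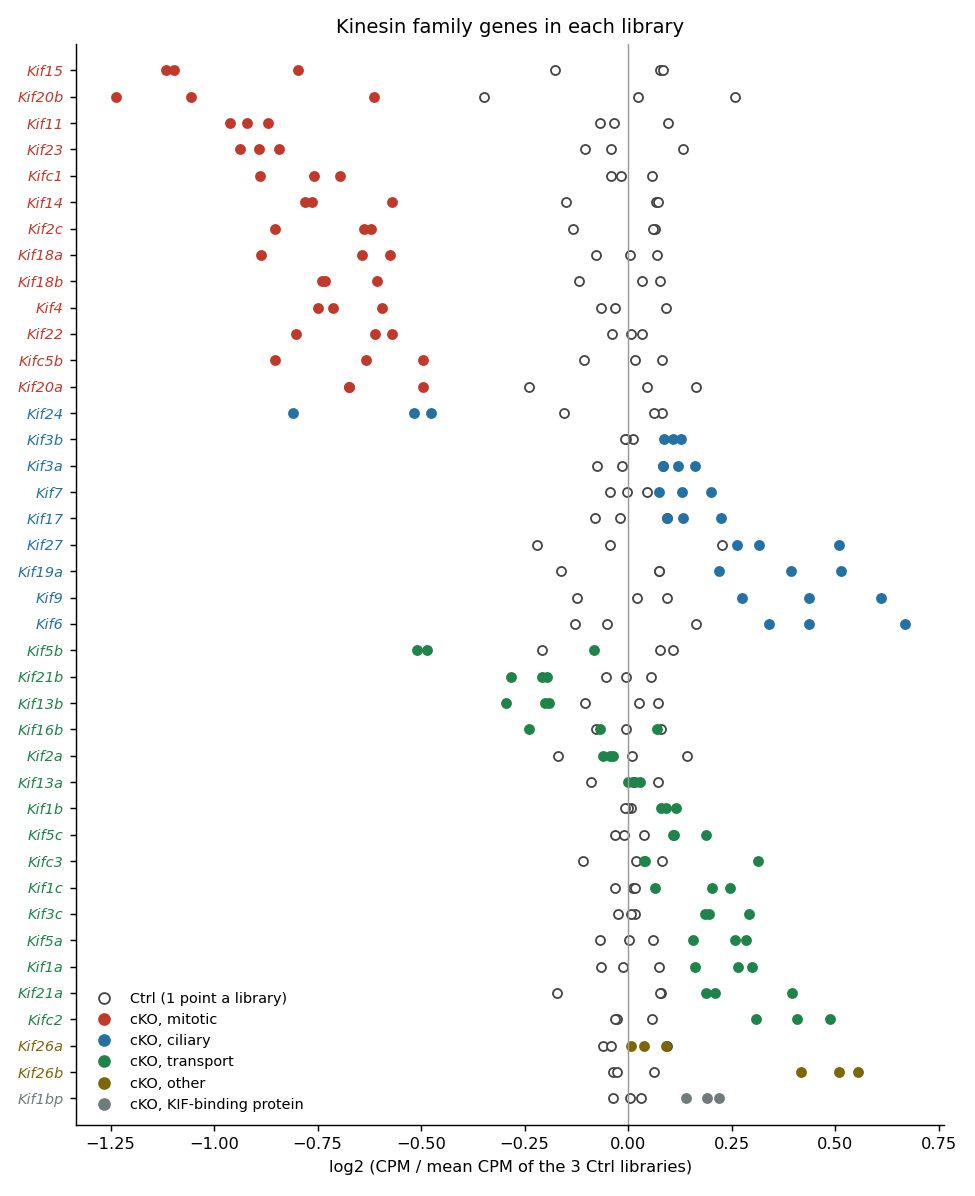
Each row is a tested kinesin family gene and each point a library, placed by the log2 ratio of its CPM to the mean of the 3 Ctrl libraries. Open points are Ctrl and filled points cKO, colored by class. The cKO points of all 13 mitotic genes lie to the left of their Ctrl points, and the cKO points of 8 of 15 transport genes and 7 of 9 ciliary genes lie to the right.

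The motors that push the spindle poles apart had some of the widest differences. *Kif11*, the tetrameric kinesin-5 that slides spindle microtubules past each other, was counted at 91.0, 99.6 and 88.9 CPM in Ctrl 1, 2 and 3 and at 47.8, 51.0 and 49.3 CPM in cKO 1, 2 and 3. The cKO libraries lay within a few CPM of each other and far under the lowest control, and the log2 fold change was -0.92 (SE 0.06, edgeR quasi-likelihood adjusted p = 1.49e-05). *Kif15*, a kinesin-12 that can stand in for *Kif11*, was counted at 50.8, 60.5 and 60.7 CPM in Ctrl and 26.8, 33.0 and 26.5 CPM in cKO, a log2 fold change of -0.997 (SE 0.11, edgeR quasi-likelihood adjusted p = 0.000182). The cKO mean of *Kif15* was 50.2% of the Ctrl mean, and that of *Kif11* was 53.0%. *Kifc1*, a kinesin-14 that walks to the minus end and focuses the spindle poles, was counted at 60.7, 56.7 and 57.7 CPM in Ctrl and 36.0, 31.5 and 34.5 CPM in cKO, with a log2 fold change of -0.78 (SE 0.07, edgeR quasi-likelihood adjusted p = 9.75e-05). Its close copy *Kifc5b* was counted at 27.8, 24.4 and 26.6 CPM and 18.6, 14.5 and 16.9 CPM, with a log2 fold change of -0.65 (SE 0.11, edgeR quasi-likelihood adjusted p = 0.00176). *Kifc1* and *Kifc5b* shared 282 of the 150-base windows of their transcripts (7.35% and 7.33% of each, GENCODE M21), so their counts may not be independent. Whether reads were in fact shared was not tested. Without *Kifc5b*, 12 of 12 mitotic kinesins were called lower, with a median of -0.70.

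The kinesins of the central spindle and of cytokinesis fell as well. *Kif23*, the motor subunit of centralspindlin, was counted at 46.9, 55.3 and 49.0 CPM in Ctrl and 28.1, 26.3 and 27.2 CPM in cKO, a log2 fold change of -0.89 (SE 0.08, edgeR quasi-likelihood adjusted p = 8.53e-05). *Kif4*, an X-linked kinesin-4 of chromosome arms and the central spindle, was counted at 45.7, 49.7 and 44.6 CPM in Ctrl and 30.9, 28.5 and 27.8 CPM in cKO, a log2 fold change of -0.68 (SE 0.08, edgeR quasi-likelihood adjusted p = 0.000296). The libraries came from animals of both sexes, with the Y-linked *Ddx3y* at 94.5 CPM in Ctrl 1, 71.3 in cKO 1 and 68.6 in cKO 3 and 0 in the other libraries, and *Kif4* stayed at -0.68 when the level of Y-linked genes entered the fit. *Kif14*, which localizes to the midbody, was counted at 21.8, 21.9 and 18.7 CPM in Ctrl and 12.1, 12.3 and 14.01 CPM in cKO, a log2 fold change of -0.70 (SE 0.10, edgeR quasi-likelihood adjusted p = 0.00113). Neither *Kif4* nor *Kif14* had a cKO library that reached its lowest Ctrl library. *Kif20a*, which brings the chromosomal passenger complex to the central spindle, was counted at 32.3, 29.8 and 24.4 CPM in Ctrl and 18.1, 18.1 and 20.4 CPM in cKO, a log2 fold change of -0.61 (SE 0.11, edgeR quasi-likelihood adjusted p = 0.00360). *Kif20b*, a kinesin-6 of late cytokinesis, was counted at 18.8, 28.6 and 24.3 CPM in Ctrl and 10.2, 15.6 and 11.5 CPM in cKO, a log2 fold change of -0.95 (SE 0.18, edgeR quasi-likelihood adjusted p = 0.00435), with the widest relative spread of the mitotic members in both groups. *Kif20b* lost its call without Ctrl 2 (-0.80), Ctrl 3 (-0.94), cKO 1 (-0.82) or cKO 3 (-0.90), and *Kif20a* without Ctrl 1 (-0.52), Ctrl 2 (-0.59) or cKO 1 (-0.58). *Kif20a* also overlaps 2315 bases of *Cdc23* on the opposite strand, which had a mean count of 1366 beside 375 for *Kif20a*, *Kif4* overlaps 832 bases of *Pdzd11* in the same way, and whether reads were counted by strand is not given in the sources used here.

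The kinesins that act on chromosomes and on microtubule ends made up the rest of the mitotic class. *Kif22*, which pushes chromosome arms to the metaphase plate, was counted at 56.0, 54.2 and 57.0 CPM in Ctrl and 36.5, 32.0 and 37.6 CPM in cKO, a log2 fold change of -0.66 (SE 0.08, edgeR quasi-likelihood adjusted p = 0.000326). *Kif2c*, the centromere depolymerase that corrects faulty attachments, was counted at 29.4, 29.3 and 25.6 CPM in Ctrl and 18.3, 15.6 and 18.1 CPM in cKO, a log2 fold change of -0.70 (SE 0.10, edgeR quasi-likelihood adjusted p = 0.000789). The kinesin-8 motors *Kif18a* and *Kif18b* damp chromosome movement and trim astral microtubules, in that order. *Kif18a* was counted at 15.5, 16.2 and 14.6 CPM in Ctrl and 8.36, 10.4 and 9.90 CPM in cKO, a log2 fold change of -0.70 (SE 0.12, edgeR quasi-likelihood adjusted p = 0.00192). *Kif18b* was counted at 41.5, 36.2 and 40.2 CPM in Ctrl and 23.5, 25.8 and 23.7 CPM in cKO, a log2 fold change of -0.69 (SE 0.08, edgeR quasi-likelihood adjusted p = 0.000380). Both kinesin-8 genes fell by a like amount, and *Kif18a* lost its call without Ctrl 2 (-0.66, adjusted p = 0.0102 in edgeR's quasi-likelihood test). *Kif2b*, a kinetochore depolymerase of the same family as *Kif2c*, had 0 counts in all 6 libraries, which allows up to 0.196 CPM at a floor of 3 counts, counting error only.

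Most of the genes that work with these motors fell as well. The partner list holds *Cenpe*, itself a mitotic kinesin, at -0.94 (SE 0.17) and called lower. Its name lies outside the Kif pattern, so the class counts and sums leave it out. Of 16 spindle partner genes all had a negative log2 fold change and 11 were called lower, against 3.63% of all tested genes. None was called higher, against 3.03% of all tested genes, and the median was -0.68. *Ect2*, the exchange factor that centralspindlin brings to the midzone, had a log2 fold change of -0.94 (SE 0.09), *Racgap1*, the other centralspindlin subunit, -0.50 (SE 0.05) and the kinetochore gene *Kntc1* -0.90 (SE 0.09), and these were called. Of 10 general proliferation genes 9 were called lower, against 3.63% of all tested genes, with a median of -0.75. The 5 markers of granule neuron progenitors were all called lower, with a summed level of 614 to 680.3 CPM in Ctrl and 186 to 208 CPM in cKO. For granule neurons 4 of 5 markers were called lower, with a summed level of 1040.2 to 1113 CPM in Ctrl and 615 to 657 CPM in cKO. Beside both counts, 3.63% of all tested genes were called lower. The part of this marker difference in the lower mitotic kinesin counts was not tested.

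The ciliary kinesins did not move as a block. Of 9 tested members, *Kif24* was called lower and none was called higher in edgeR or DESeq2. Over all tested genes edgeR called 3.63% lower and 3.03% higher, and with 9 members the counts cannot be told from these shares. In edgeR's quasi-likelihood test 5 had an unadjusted p under 0.05, against 6499 of all 17505 tested genes. The median log2 fold change was 0.15, with a range of -0.60 to 0.49. For 7 of the 9 the cKO libraries lay above all Ctrl libraries, against 20.4% of all tested genes, for 1 they lay below, and for *Kif3a* the groups overlapped. *Kif24*, a centriole depolymerase that restrains cilium formation, was counted at 14.3, 16.8 and 16.6 CPM in Ctrl and 9.06, 11.4 and 11.1 CPM in cKO, a log2 fold change of -0.60 (SE 0.12, edgeR quasi-likelihood adjusted p = 0.00627). Its cKO mean was 66.2% of the Ctrl mean, beside 65.4% for *Kif20a*, the mitotic member that fell least. The call of *Kif24* was lost without Ctrl 2 (-0.55), Ctrl 3 (-0.56), cKO 1 (-0.50) or cKO 3 (-0.64).

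The subunits of the motor that carries material up the cilium differed by less than the fold threshold. *Kif3a* was counted at 143, 153 and 137 CPM in Ctrl and 153, 161 and 156 CPM in cKO, a log2 fold change of 0.12 (SE 0.05, edgeR quasi-likelihood adjusted p = 0.128), and its lowest cKO library lay within rounding of its highest Ctrl library. *Kif3b*, which pairs with *Kif3a*, was counted at 129, 127 and 127 CPM in Ctrl and 139.6, 136 and 138 CPM in cKO, a log2 fold change of 0.11 (SE 0.04, edgeR quasi-likelihood adjusted p = 0.105). Both subunits also serve as neuronal motors. *Kif7*, which sits at the cilium tip and regulates Gli factors in Hedgehog signaling, was counted at 19.7, 19.1 and 18.6 CPM in Ctrl and 20.9, 20.1 and 22.0 CPM in cKO, a log2 fold change of 0.14 (SE 0.08, edgeR quasi-likelihood adjusted p = 0.258). *Kif17*, a motor of cilia and dendrites, was at 5.21, 4.82 and 4.62 CPM in Ctrl and 5.71, 5.21 and 5.36 CPM in cKO, with a log2 fold change of 0.15 (SE 0.15), and it overlaps *Sh2d5* on the same strand over 10898 bases.

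The kinesins of motile cilia were low and lay above control in all cKO libraries, but none passed the test. *Kif9*, of the central apparatus, was counted at 5.60, 4.82 and 5.33 CPM in Ctrl and 8.02, 7.10 and 6.35 CPM in cKO, a log2 fold change of 0.45 (SE 0.15, edgeR quasi-likelihood adjusted p = 0.0593). *Kif19a*, a depolymerase that sets cilium length, was counted at 5.60, 5.60 and 4.75 CPM in Ctrl and 6.98, 6.19 and 7.60 CPM in cKO, a log2 fold change of 0.38 (SE 0.15, edgeR quasi-likelihood adjusted p = 0.101). *Kif6* and *Kif27* gave 0.49 (SE 0.25) and 0.37 (SE 0.18), from levels of 1.89, 1.63 and 1.54 CPM and 4.56, 3.78 and 3.34 CPM in Ctrl and 2.13, 2.28 and 2.68 CPM and 4.84, 5.54 and 4.67 CPM in cKO. These 4 genes had the largest positive values of the ciliary class, each within 3 standard errors of 0. Markers of multiciliated ependyma were higher beside them, with a summed level of 65.6 to 76.4 CPM in Ctrl and 106 to 123 CPM in cKO. Of these 2 of 6 were called higher (*Foxj1* and *Dnah11*), against 3.03% of all tested genes. Choroid plexus markers, by contrast, varied among the cKO libraries from 13.1 to 749 CPM, against 75.8 to 142 CPM in Ctrl, with cKO 2 lowest and cKO 3 highest. The part of either in the values of these kinesins was not tested. The 18 genes of intraflagellar transport, the cargo trains that *Kif3a* and *Kif3b* pull, had a median of -0.03. None was called by edgeR, against 3.63% lower and 3.03% higher over all tested genes. An unadjusted p under 0.05 was reached by 5 of 18 (6499 of 17505 over all tested genes). *Ift80* at -0.46 (SE 0.09), *Ift27* at -0.39 (SE 0.08) and *Kifap3*, the accessory subunit of the *Kif3a* and *Kif3b* motor, at 0.18 (SE 0.04) had the smallest p-values of the 18.

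Transport kinesins stayed closer to control than the mitotic ones in fold change. None of 15 was called in either direction by edgeR's quasi-likelihood test, with a median log2 fold change of 0.14 and a range of -0.35 to 0.40. Over all tested genes 3.63% were called lower and 3.03% higher. With 15 genes, the absence of calls cannot be told from these shares. In the quasi-likelihood test 11 of the 15 had an unadjusted p under 0.05, a larger share than the 6499 of all 17505 tested genes. DESeq2 called none of the 15 either. Adjusted p-values under 0.01 were reached by 3 that were higher in cKO and 1 that was lower, all short of the fold threshold. The groups did not overlap for 8 that were higher and 2 that were lower, against 20.4% and 20.1% of all tested genes, and they overlapped for 5. The smallest of the mitotic differences (-0.61) thus exceeded the largest of the transport differences in that direction (-0.35).

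**Figure D2:**
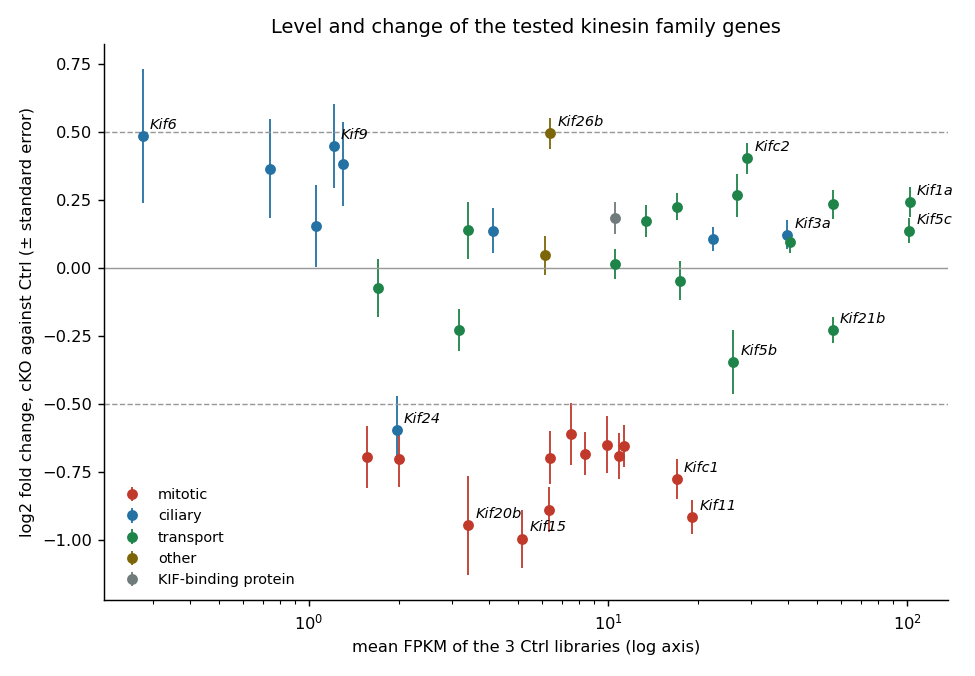
Each point is a tested gene, with its mean FPKM in the 3 Ctrl libraries on a log axis and its log2 fold change, cKO against Ctrl, with the standard error as bars. Dashed lines mark the fold threshold of 0.5. Mitotic genes lie below -0.5 at every level up to 19.2 FPKM, while the transport genes, which reach 102 FPKM, stay between the lines.

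*Kifc2*, a neuronal motor that walks to the minus end, showed the widest difference of the class. It was counted at 114, 113 and 120.4 CPM in Ctrl and 162, 143 and 153 CPM in cKO, a log2 fold change of 0.40 (SE 0.06, edgeR quasi-likelihood adjusted p = 0.000898). *Kif1a*, the kinesin-3 that carries synaptic vesicle precursors, was counted at 1011, 919 and 952 CPM in Ctrl and 1154, 1075 and 1182 CPM in cKO, a log2 fold change of 0.24 (SE 0.05, edgeR quasi-likelihood adjusted p = 0.00914). The lowest cKO library lay above the highest Ctrl library for both genes. *Kif3c*, a neuronal partner of *Kif3a*, was counted at 128, 125 and 127 CPM in Ctrl and 155, 145 and 144 CPM in cKO, a log2 fold change of 0.23 (SE 0.05, edgeR quasi-likelihood adjusted p = 0.00810). *Kif21a*, a kinesin-4 that limits microtubule growth in axons, was counted at 157, 187 and 187 CPM in Ctrl and 205, 233 and 202 CPM in cKO, a log2 fold change of 0.27 (SE 0.08, edgeR quasi-likelihood adjusted p = 0.0318). Its paralog *Kif21b*, which acts likewise in neurons, was lower in cKO, at 721, 669.6 and 692 CPM in Ctrl and 606, 571 and 601 CPM in cKO, a log2 fold change of -0.23 (SE 0.05, edgeR quasi-likelihood adjusted p = 0.00741). The paralogs thus lay on opposite sides of control in the same libraries, although neither was called.

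The conventional kinesin heavy chains also split. *Kif5c* and *Kif5a* are the neuronal chains and *Kif5b* is the chain found in all tissues. *Kif5c* was counted at 729, 718 and 754 CPM in Ctrl and 792, 836 and 791 CPM in cKO, a log2 fold change of 0.14 (SE 0.05, edgeR quasi-likelihood adjusted p = 0.0549). *Kif5a* was counted at 416, 380.4 and 399 CPM in Ctrl and 477, 444 and 485 CPM in cKO, a log2 fold change of 0.23 (SE 0.05, edgeR quasi-likelihood adjusted p = 0.0102). Both neuronal chains were above control in every cKO library. *Kif5b* was counted at 169, 211 and 206 CPM in Ctrl and 137, 184 and 139.5 CPM in cKO, a log2 fold change of -0.35 (SE 0.12, edgeR quasi-likelihood adjusted p = 0.0557), with cKO 2 above Ctrl 1, so its groups overlapped.

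The remaining transport members differed little or within their spread. *Kif1c* and *Kif1b*, vesicle and mitochondrial motors related to *Kif1a*, gave log2 fold changes of 0.17 (SE 0.06) and 0.10 (SE 0.04). *Kif2a* overlaps *Dimt1* on the opposite strand by 1229 bases. *Kif13b* was lower at -0.23 (SE 0.08), and its relative *Kif13a*, an endosome motor, was at 0.02 (SE 0.06). *Kif16b* at -0.07 (SE 0.11), *Kif2a* at -0.05 (SE 0.07) and *Kifc3* at 0.14 (SE 0.10) had groups that overlapped. *Kif2a* is a microtubule depolymerase that restrains axon branching and also works at spindle poles, and with 113, 124 and 100.04 CPM in Ctrl and 109.6, 108 and 109 CPM in cKO its cKO libraries sat inside the control range, unlike those of *Kif2c*. With *Kif2a* counted as mitotic the mitotic median stayed at -0.70, but not every tested mitotic member was then called lower, since *Kif2a* was not called.

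Partners of the transport motors were near control too. Of 20 tested kinesin light chains and cargo adaptors 15 had a positive log2 fold change, and the median was 0.09. None was called by edgeR, against 3.63% lower and 3.03% higher over all tested genes. An unadjusted p under 0.05 was reached by 10 (6499 of 17505 over all tested genes). *Sybu* at 0.45 (SE 0.06), *Fez1* at 0.33 (SE 0.04) and *Trak2* at -0.37 (SE 0.06) had the smallest p-values of the 20. Of 17 genes of dynein and dynactin, the motor complex that moves the opposite way, 1 was called in each direction and the median was 0.03. With 17 genes, these counts (5.88% each) cannot be told from the 3.63% lower and 3.03% higher of all tested genes. *Nde1*, a dynein regulator that also acts in dividing progenitors, fell by 0.57 on the log2 scale (SE 0.07), and *Dync1i1*, the neuronal intermediate chain, rose by 0.61 (SE 0.12). Markers of other neurons differed in both directions beside the transport kinesins. Over all tested genes 3.03% were called higher. Of 7 Purkinje cell markers 4 were called higher, with a summed level of 1501 to 1630 CPM in Ctrl against 2068 to 2564 CPM in cKO. For GABAergic interneurons 3 of 5 markers were called higher, with a summed level of 429 to 444 CPM in Ctrl against 627 to 657 CPM in cKO. The 5 markers of nuclear neurons and unipolar brush cells summed to a lower level, 193 to 204 CPM in Ctrl against 166 to 169 CPM in cKO. They differed in direction, with 2 lower, 3 higher and a median log2 fold change of 0.22. *Slc17a6* at -0.49 (SE 0.06) and *Eomes* at -0.42 (SE 0.06) were lower and not called. *Meis2* at 0.66 (SE 0.12) was called higher. *Tbr1* at 0.33 (SE 0.18) and *Lhx9* at 0.22 (SE 0.14) were higher and not called. Astrocyte and Bergmann glia markers summed to 3027 to 3095 CPM in Ctrl and 4072 to 4350.4 CPM in cKO. Of these 2 of 6 were called higher, against 3.03% of all tested genes. The part of these differences in the transport kinesin values was not tested.

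**Figure D3:**
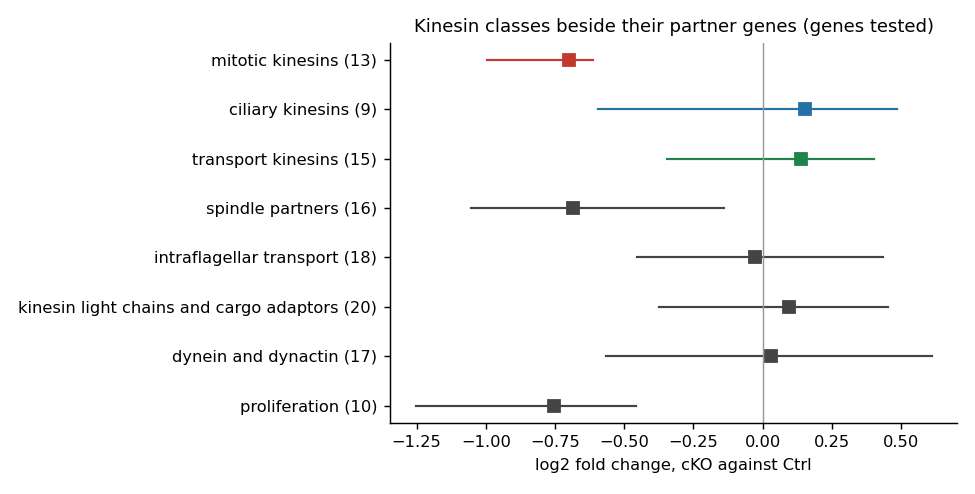
Each line runs from the lowest to the highest log2 fold change, cKO against Ctrl, of the tested genes of a class or list, and the square marks the median. Mitotic kinesins (-0.70), spindle partners (-0.68) and proliferation genes (-0.75) lie left of 0, while the medians of the ciliary and transport kinesins and of their partner lists lie between -0.03 and 0.15.

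The members outside these classes were few. *Kif26b* and *Kif26a* are atypical kinesins that lack motor activity. *Kif26b* was counted at 92.6, 99.2 and 93.3 CPM in Ctrl and 139.5, 127 and 135 CPM in cKO, or 141% of the Ctrl mean, a log2 fold change of 0.50 (SE 0.06, edgeR quasi-likelihood adjusted p = 0.000228). Its unrounded value of 0.495 fell just short of the fold threshold, so it was not called, although every cKO library lay above every Ctrl library, and it was called higher in 7 of 16 alternative analyses. *Kif26a* was at 41.3, 41.9 and 46.0 CPM in Ctrl and 44.2, 45.9 and 43.2 CPM in cKO, a log2 fold change of 0.05 (SE 0.07), and the groups overlapped. *Kif1bp*, whose product holds motor domains off microtubules, was at 53.4, 51.0 and 52.4 CPM in Ctrl and 59.6, 57.5 and 60.8 CPM in cKO, a log2 fold change of 0.18 (SE 0.06, edgeR quasi-likelihood adjusted p = 0.0493). *Kif12*, with 0, 0 and 2 counts in Ctrl and 3, 10 and 5 in cKO, and *Kif28*, with 1, 1 and 1 counts in Ctrl and 1, 0 and 2 in cKO, had too few reads to test.

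Per unit of gene length, the transport kinesins made up most of the kinesin mRNA in both groups. On the authors' FPKM scale (fragments scaled to gene length and library size), *Kif1a* and *Kif5c* led with means of 102 ± 4.92 and 102 ± 2.51 FPKM (SD, n = 3) in Ctrl, which did not differ beyond their spread, followed by *Kif5a* at 56.5 ± 2.46 and *Kif21b* at 56.5 ± 2.05, also within their spread. In cKO the last pair came apart, with *Kif5a* at 66.7 ± 3.43 FPKM and *Kif21b* at 48.4 ± 1.80 FPKM. *Kif11* had the highest FPKM of the mitotic kinesins, 19.2 ± 1.18 in Ctrl and 10.2 ± 0.275 in cKO, followed by *Kifc1* at 17.0 ± 0.602 and 9.94 ± 0.719. The lowest tested member was *Kif6*, at 0.278 ± 0.0296 FPKM in Ctrl and 0.391 ± 0.0471 FPKM in cKO.

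Summed over members, the mitotic kinesins gave 109.7, 111 and 106 FPKM in Ctrl 1, 2 and 3 and 65.6, 62.7 and 65.3 FPKM in cKO 1, 2 and 3. The transport kinesins summed to 509.5, 499 and 511 FPKM in Ctrl and 561, 547 and 559 FPKM in cKO, and the ciliary kinesins to 73.0, 75.3 and 70.5 FPKM in Ctrl and 79.0, 79.7 and 79.9 FPKM in cKO. The cKO sums lay below every Ctrl sum for the mitotic class and above every Ctrl sum for the other classes. The mitotic share of all kinesin FPKM was 15.5% ± 0.344 (SD, n = 3) in Ctrl and 9.02% ± 0.106 in cKO, and the transport share was 72.3% ± 0.697 in Ctrl and 77.7% ± 0.0627 in cKO. The total over all kinesins was 701 ± 3.16 FPKM in Ctrl and 715 ± 9.23 FPKM in cKO. Since shares sum to 100%, a lower mitotic share raises the others without any change in their own level.

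**Figure D4:**
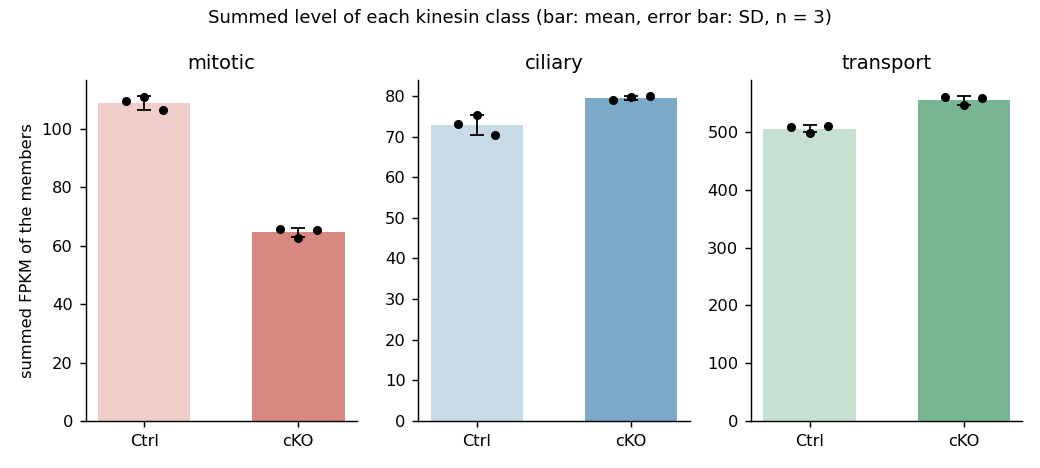
Bars give the mean summed FPKM of the mitotic, ciliary and transport kinesins in Ctrl and cKO, error bars the SD, and points the 3 libraries of each group, each panel with its own axis from 0. The mitotic sum is 109 in Ctrl and 64.5 in cKO, the ciliary sum 72.9 and 79.5, and the transport sum 506.5 and 555.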

How the data were processed

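Poly-T selected RNA of 6 cerebella libraries, 3 Ctrl and 3 cKO, was grouped by the labels. The deposited counts per gene are raw: per the study's methods and the submitters' processing notes, the authors removed low-quality paired-end reads, aligned the rest to mm10 with HISAT2 2.0.5 and counted them with featureCounts 1.5.0-p3. The authors also deposited FPKM values, which divide the count by gene length and depth. The annotation release and the strand setting are not given in the sources used here.

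The counts were fitted by edgeR 4.0.16 under R 4.3.3, using filterByExpr, TMM scaling and its quasi-likelihood functions glmQLFit and glmQLFTest, over 17505 of 54532 genes, which held 99.8% of the counts, with Benjamini-Hochberg adjustment and a common dispersion of 0.0105. CPM values use TMM-normalized totals, and standard errors are the log2 fold change over the square root of F. Calls use the study's thresholds. Members, classes, lists and alternatives were chosen with earlier results of these data known. Lists of partner and marker genes were written by hand and were not tested as sets. Named were all members, and at most 3 genes of smallest p of each partner list besides *Cenpe*. Members called, and the 2 of smallest p and the 2 of highest FPKM in each class, have the value of every library. Others were added after their values were seen. Non-coding rows of the same name pattern, 4 of 47, were left out. DESeq2 1.42.0, limma 3.58.1 on log2(FPKM + 0.1), other scalings and filters and left-out libraries were alternatives. The fit was tested on simulated counts. Same-group libraries differed by more than sampling noise, so none was a copy. RefSeq promoters (GRCm38.p6) end inside the transcripts of the same gene for 31 of 37 entries.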

Additional observations from a re-analysis of the deposited data

How the results depend on the processing

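Over 16 alternatives and 40 tested members, 597 of 640 comparisons kept direction and side of the threshold, 28 lost the call, 11 gained it and 4 changed sign. *Kif11*, *Kif15* and *Kif23* kept the call in all 16. DESeq2, other scalings and filters and the Y-chromosome covariate left 13 mitotic kinesins called lower. Without the fold threshold 1268 genes were lower and 1147 higher, with 1 transport kinesin lower and 3 higher. Testing against a log2 fold change of 0.5 gave 145 and 30 genes, 3 mitotic kinesins (*Kif15*, *Kif11*, *Kif23*) and 0 ciliary kinesins. On log2(FPKM + 0.1), limma called 9 mitotic and 0 ciliary kinesins lower. With *Kif3a* and *Kif3b* counted as transport the ciliary median was 0.37. Leaving out each library in turn gave 492 to 778 genes lower, 349 to 569 higher, 10 to 13 mitotic and 0 to 1 ciliary kinesins lower, and medians of -0.76 to -0.69 (mitotic), 0.12 to 0.20 (ciliary) and 0.098 to 0.156 (transport). The sign changes were those of *Kif2a* (-0.12 to 0.030), *Kif13a* (-0.028 to 0.053, and -0.00179 with the Y-chromosome covariate) and *Kif16b* (-0.14 to 0.0015), all near 0. The cause was not tested.

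The replicate numbers were not shown to pair libraries: deviations of same-numbered libraries correlated at 0.243, 0.265 and -0.163. With the replicate block 696 genes were called lower and 561 higher, and 13 mitotic kinesins were lower. Members under about 10 CPM carry standard errors over 0.1, so small differences there were not detectable at this depth. Some members at higher levels had standard errors over 0.1 too, among them *Kif5b* (0.117 at a Ctrl mean of 195 CPM) and *Kif20b* (0.182 at 23.9 CPM).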
